A study of Rattus norvegicus with 6 samples.

Results

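The genes described here encode the folding and import machinery of the endoplasmic reticulum (ER): its chaperones, disulfide and prolyl isomerases, the SEC61 translocon with its partners, and signal peptidase. They were chosen as the rows whose gene name was one of 50 listed symbols, and 46 of the 50 matched, out of 30945 genes in the count tables. Manf, Ssr4 and Srprb were not analysed here, and Srpr was found only under its newer symbol Srpra, whose values are given beside the list but not counted in it. All 46 matched genes passed the filter on low counts and were among the 13016 genes tested.

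RNA sequencing was done on primary vascular smooth muscle cells of the rat, the contractile cells of the vessel wall, in culture. The comparison is between 3 libraries labelled siRNA_ANK, from cells treated with a small interfering RNA, and 3 libraries labelled Negative_control, and asks which genes differ when ANK is deficient. The labels do not give the sequence of the siRNA, the vessel, the strain and age of the rats or the time after treatment, nor whether the replicates were independent cultures. The p-values therefore cover the scatter among these 6 libraries and no more, and that scatter may be technical.

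The siRNA_ANK libraries held 16020392 to 17065297 counts and the controls 15641259 to 17441548. Ankh, which encodes the protein also called ANK, was 84.9, 76.7 and 120 CPM (counts scaled to the depth of each library with edgeR's TMM factors) in siRNA_ANK cells and 338, 351 and 367 CPM in controls (log2 fold change -1.91 ± 0.16 SE, siRNA_ANK over control, adjusted p = 0.000180 in edgeR's quasi-likelihood test, as for every adjusted p below unless another tool is named). Of the ankyrin genes, which the label ANK could also mean, Ank2 had a log2 fold change of -0.19 (adjusted p = 0.0218), a call lost without any of the 3 controls, Ank3 had 0.34 (adjusted p = 0.0847), and Ank1 had 0 to 4 counts per library and was not tested. Of 10 smooth muscle markers, 9 were higher and none lower in siRNA_ANK, against 19.9% of all genes tested that were higher. With 1 library left out, 8 were higher in each fit except that without control 2, where 9 were. The summed levels of the 10 markers were 8637 to 10234 CPM in siRNA_ANK and 4868 to 6491 CPM in controls. The endothelial markers Cdh5, Kdr, Tie1 and Emcn and the macrophage markers Adgre1, Ptprc, Itgam and Cd163 had 0 counts in all 6 libraries, and the summed level of 7 endothelial markers was at most 1.58 CPM. Of 7 adventitial fibroblast markers tested, 5 were higher and 1 lower, with summed levels of 234 to 248 CPM in siRNA_ANK and 176 to 193 CPM in controls. Of 8 macrophage markers, Cd14 alone was tested and fell (log2 fold change -1.06), with summed levels of 11.2 to 14.9 CPM in siRNA_ANK and 24.8 to 28.0 CPM in controls, and of 5 Schwann cell markers 2 were tested and 0 passed, with sums of 6.83 to 9.37 CPM in siRNA_ANK and 7.99 to 9.25 CPM in controls. The part of the shift in muscle, macrophage and fibroblast markers in the results that follow was not tested, and in bulk RNA fewer cells of a type and less RNA per cell cannot be told apart.

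Secreted and membrane proteins enter the ER through the SEC61 channel while they are being made, lose their signal peptide to signal peptidase, and then fold with the help of chaperones and of enzymes that form and rearrange disulfide bonds. The HSP70-type chaperone BiP, encoded by Hspa5, binds unfolded chains in cycles that J-domain proteins start and nucleotide exchange factors end. When unfolded proteins build up, the sensors ATF6, IRE1 and PERK raise transcription of many of these genes, in part through the ER stress response element (ERSE) in their promoters. Smooth muscle cells of arteries are secretory cells, which make the elastin and collagen of the vessel wall.

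ER folding and import genes were lower in siRNA_ANK cells across nearly every class. Of the 46 genes tested, 40 fell and 0 rose at an adjusted p under 0.05 in edgeR's quasi-likelihood test. Over all genes tested 20.2% were lower and 19.9% higher. At an unadjusted p under 0.05 the number that rose was also 0, and the positive log2 fold changes of the list lay between 0.01 and 0.10. DESeq2 called 39 lower and 0 higher. At least 2-fold falls were found for 14 of the 46 genes, against 2.58% of all genes tested. The siRNA_ANK values lay below every control value, without overlap, for 40 of the 46 genes, against 25.4% of all genes tested. The median log2 fold change was -0.66 for the 46 genes and 0.01 for all genes tested, and the 40 falls ran from 1.12-fold for Ssr2 to 4.96-fold for Creld2. The list was chosen with earlier results of these data known, so its contrast with all genes is a description and not an independent test.

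**Figure D1:**
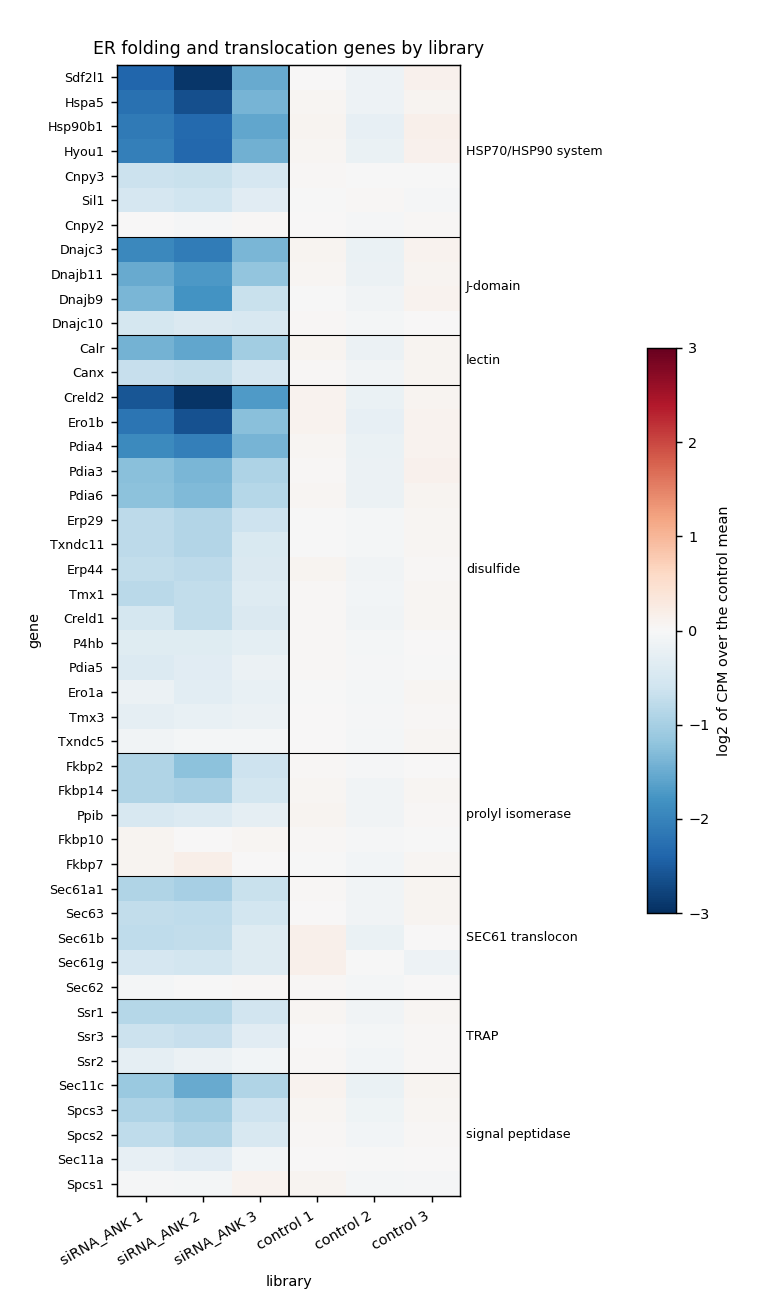
Each cell shows the log2 of a gene's CPM over the mean of the 3 controls, for the 46 genes (rows, by role) in the 3 siRNA_ANK and 3 negative control libraries (columns). Most rows are blue in all 3 siRNA_ANK columns, deepest for Creld2, Sdf2l1 and Hspa5, and the third siRNA_ANK column is the palest of the 3 for 38 of the 40 genes that fell.

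These falls took a visible share out of the libraries. The 46 genes held 1.36%, 1.22% and 1.86% of all counts in the siRNA_ANK libraries and 4.20%, 3.59% and 4.30% in the controls, which is 1.48 ± 0.339% against 4.03 ± 0.384% (SD, n = 3 each). The groups did not overlap, and no test is given, since the smallest p that exact permutation of 6 libraries allows is 0.1. Hspa5 alone held 0.297%, 0.222% and 0.530% of the counts in siRNA_ANK and 1.51%, 1.30% and 1.54% in controls. It ranked 24, 34 and 10 among all genes in the siRNA_ANK libraries and 4, 6 and 4 in the controls. Without Hspa5, the other 45 genes held 1.13 ± 0.179% of the counts in siRNA_ANK and 2.58 ± 0.257% in controls.

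**Figure D2:**
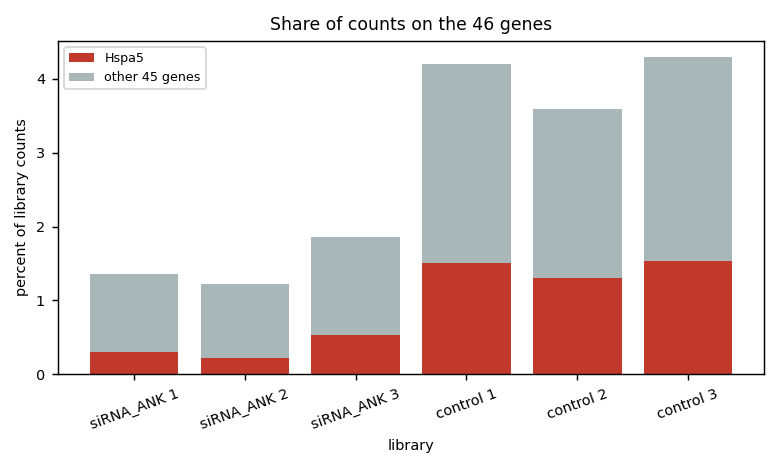
Bars give the percent of all counts of each library that fell on the 46 genes, split into Hspa5 and the other 45 genes. The siRNA_ANK bars end between 1.22% and 1.86% and the control bars between 3.59% and 4.30%.

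Promoter sequences were read for 39 of the 46 genes from the RefSeq table for the GRCr8 assembly, with 250 bases before to 50 bases after each gene's start; Pdia3, Pdia6, Tmx1, Ero1a, Creld1, Fkbp10 and Sec61a1 had no entry by symbol. The promoters of Hspa5, which had the highest level per kilobase, of Hsp90b1, which held 2 ERSE matches, and of Creld2, which fell most, are shown. Capitals mark each match to the ERSE, CCAAT and CCACG separated by 9 bases, on either strand. They lie at chr3:38452766-38453065 on the plus strand (Hspa5), chr7:23012244-23012543 on the minus strand (Hsp90b1) and chr7:121789134-121789433 on the plus strand (Creld2).
Hspa5: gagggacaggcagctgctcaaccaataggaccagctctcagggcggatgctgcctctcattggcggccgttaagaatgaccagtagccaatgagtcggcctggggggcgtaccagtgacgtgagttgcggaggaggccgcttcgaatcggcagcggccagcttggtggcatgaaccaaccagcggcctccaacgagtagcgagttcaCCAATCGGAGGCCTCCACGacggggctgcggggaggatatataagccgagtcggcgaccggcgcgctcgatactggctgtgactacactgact
Hsp90b1: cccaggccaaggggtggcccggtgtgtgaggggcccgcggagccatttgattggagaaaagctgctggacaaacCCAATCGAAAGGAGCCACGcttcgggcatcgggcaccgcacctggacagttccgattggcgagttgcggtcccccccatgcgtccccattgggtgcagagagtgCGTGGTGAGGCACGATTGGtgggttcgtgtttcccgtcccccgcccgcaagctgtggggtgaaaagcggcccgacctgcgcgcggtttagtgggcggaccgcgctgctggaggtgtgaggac
Creld2: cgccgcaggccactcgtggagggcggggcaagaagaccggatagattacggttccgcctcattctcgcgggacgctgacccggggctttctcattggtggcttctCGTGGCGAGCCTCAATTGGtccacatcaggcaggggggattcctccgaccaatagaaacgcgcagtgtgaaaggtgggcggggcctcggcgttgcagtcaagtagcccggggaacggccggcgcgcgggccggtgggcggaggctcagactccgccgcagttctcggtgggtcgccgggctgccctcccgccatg

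An exact ERSE was found in the promoters of 7 of these 39 genes (17.9%), against 22 of all 33469 promoters in the table (0.0657%) and 17 of the 9009 tested genes with a promoter entry (0.189%). The 8 matches, each written in the direction of the motif with its fixed bases in capitals, were as follows.
Hspa5: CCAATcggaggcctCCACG
Hsp90b1, upstream match: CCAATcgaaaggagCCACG
Hsp90b1, downstream match: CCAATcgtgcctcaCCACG
Creld2: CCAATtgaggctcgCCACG
Dnajc3: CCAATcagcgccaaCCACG
Ero1b: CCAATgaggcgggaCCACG
Calr: CCAATcagggtcgaCCACG
Canx: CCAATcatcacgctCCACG

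The match of Hspa5 began 43 bases before the start of the gene, those of Hsp90b1 176 and 72 bases before it, and those of the others between 133 bases (Dnajc3) and 232 bases (Calr) before it. The 4 matches in Calr, Creld2, Ero1b and the downstream one in Hsp90b1 were on the opposite strand. Of the 12 genes that fell at least 2-fold and had a promoter entry, 6 held an ERSE, and of the other 27 genes 1 did (Canx). The log2 fold changes of the 7 genes ran from -2.31 to -0.64, and those of the 32 genes without a match from -2.15 to 0.10. Sdf2l1 and Pdia4, which fell 4.45-fold and 3.38-fold, had no exact match.

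A related element, ERSE-II, was searched as ATTGG and CCACG separated by 1 base on either strand. It was present in 2 of the 39 genes (5.13%), Hyou1 with 2 matches and Dnajb11 with 1, in 17 of all 33469 promoters (0.0508%) and in 8 of the 9009 tested genes (0.0888%). The 33469 promoters are entries, and a gene can have more than 1. Hyou1 had 2 entries, and both of its matches lay in the upstream one. Its UPR element, given next, lay there too. The UPR element TGACGTG was found in 5 of the 39 (Dnajc10, Erp29, Hspa5, Hyou1 and Txndc11; 12.8%, against 1.81% of all promoters and 2.82% of tested genes), and 1 of these matches overlapped an ERSE-II or ERSE match. The ATF4 site TGATGNAAT was found in 0 of the 39 in 1.09% of all promoters and in 0.477% of tested genes. Outside the list, 10 further genes tested held an exact ERSE, of which 4 fell and 2 rose, against 20.2% and 19.9% of all genes tested. Derl3 was among those that fell, with a log2 fold change of -3.68. Calr4 had the largest change in the other direction, with a log2 fold change of 1.36. Both were named after their values were seen. A match describes letters in this window and is not a binding site. As said above, the ERSE is known as an element in the promoters of many genes of this kind. Its excess in this list was therefore to be had beforehand and supports nothing. Its link to the size of the fall was not tested.

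The chaperones of the HSP70 and HSP90 systems had the lowest median log2 fold change of the role groups, -1.89. Of these, 6 of 7 fell, against 20.2% of all genes tested. Hspa5 (mRatBN7.2 chromosome 3, plus strand, 18055405 to 18059891) measured 3028, 2271 and 5376 CPM in siRNA_ANK cells and 14770, 12878 and 15003 CPM in controls. The highest siRNA_ANK value was well under the lowest control value, and the fall was 3.995-fold (log2 fold change -2.00 ± 0.38, adjusted p = 0.0168). The adjusted p was above 0.05 when control 1 (0.0534), control 3 (0.0550) or siRNA_ANK 1 (0.0630) was left out, while the log2 fold change stayed between -2.43 and -1.76.

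Hsp90b1 encodes GRP94, the HSP90-type chaperone of the ER. It was at 1277, 1101 and 1903 CPM in siRNA_ANK and 5883, 4693 and 6166 CPM in controls, 3.91-fold lower (log2 fold change -1.97 ± 0.26, adjusted p = 0.00475). Hyou1 encodes a large HSP70-like protein that serves as a nucleotide exchange factor for BiP. It was at 415, 335 and 631 CPM in siRNA_ANK and 1771, 1480 and 1875 CPM in controls (log2 fold change -1.89 ± 0.28, adjusted p = 0.00731). The other exchange factor of BiP, Sil1, had a smaller fall, at 28.3, 26.4 and 31.4 CPM in siRNA_ANK and 39.8, 41.1 and 38.6 CPM in controls (log2 fold change -0.47 ± 0.08).

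Sdf2l1 encodes a small protein that works with J-domain partners of BiP. It measured 36.1, 24.9 and 66.6 CPM in siRNA_ANK and 189, 169 and 208 CPM in controls (log2 fold change -2.15 ± 0.40, adjusted p = 0.0150), a call that Sdf2l1 lost with control 1 (adjusted p = 0.05002), control 3 (0.0533) or siRNA_ANK 1 (0.0609) left out. Cnpy3, which helps GRP94 fold Toll-like receptors, fell to 48.7 ± 2.86 CPM, against 74.2 ± 1.91 CPM in controls (SD, n = 3 each). Cnpy2, of the same family, was at 71.7 ± 1.90 CPM in siRNA_ANK and 71.3 ± 1.99 CPM in controls (log2 fold change 0.01 ± 0.06, adjusted p = 0.934).

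All 4 J-domain co-chaperones fell, against 20.2% of all genes tested. Dnajc3 encodes P58IPK, which passes unfolded chains to BiP, and measured 127, 112 and 188 CPM in siRNA_ANK and 513, 420 and 520 CPM in controls (log2 fold change -1.77 ± 0.23, adjusted p = 0.00284). Dnajb11 encodes ERdj3, another substrate-binding partner of BiP, and was at 137, 117.4 and 173 CPM in siRNA_ANK and 408, 348 and 416 CPM in controls (log2 fold change -1.46 ± 0.15, adjusted p = 0.000287). Both sets of values were well apart. Dnajb9 encodes ERdj4, which recruits BiP to the sensor IRE1. It was at 63.8, 47.1 and 103 CPM in siRNA_ANK and 164, 151 and 177 CPM in controls (log2 fold change -1.20 ± 0.32, adjusted p = 0.0416). Leaving out any 1 control (adjusted p = 0.108, 0.0926 and 0.113 for controls 1, 2 and 3) or siRNA_ANK 1 (0.120) ended the call of Dnajb9. Dnajc10 encodes ERdj5, a reductase of disulfide bonds, and fell less, to 124 ± 4.75 CPM, against 174 ± 6.58 CPM in controls.

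The lectin chaperones calreticulin and calnexin hold glycoproteins during folding. Calr, the soluble one, was at 1279, 1169 and 1655 CPM in siRNA_ANK and 3638, 3056 and 3617 CPM in controls, 2.51-fold lower (log2 fold change -1.33 ± 0.14, adjusted p = 0.000415). Canx, its membrane-bound counterpart, was at 910, 876 and 1030 CPM in siRNA_ANK and 1494, 1356 and 1549 CPM in controls, 1.56-fold lower (log2 fold change -0.64 ± 0.07, adjusted p = 5.24e-06). The values of neither gene overlapped between the groups.

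The group of disulfide formation, in which Creld1 and Creld2 were also placed, had log2 fold changes from -2.31 (Creld2) to -0.07. Ero1b had the next lowest, at -1.91. Of the 15 genes of this group tested, 14 fell and 5 of them at least 2-fold, against 20.2% and 2.58% of all genes tested. The median log2 fold change of the group was -0.65. Creld2 (mRatBN7.2 chromosome 7, plus strand, 119909633 to 119916543), which encodes an ER-resident and secreted protein with EGF-like domains, had the largest fall of the 46 genes. It was at 96.3, 74.5 and 176 CPM in siRNA_ANK and 613, 501 and 602 CPM in controls (log2 fold change -2.31 ± 0.38, adjusted p = 0.0105). Its paralog Creld1 was 1.48-fold lower, at 49.2 ± 5.32 CPM in siRNA_ANK and 72.6 ± 4.92 CPM in controls.

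The oxidases that pass electrons from protein disulfide isomerase to oxygen differed from each other. Ero1b measured 21.9, 16.4 and 42.0 CPM in siRNA_ANK and 108, 84.6 and 108 CPM in controls, 3.75-fold lower (log2 fold change -1.91 ± 0.39, adjusted p = 0.0192). The fall of Ero1b did not pass with control 1 (adjusted p = 0.0657), control 3 (0.0628) or siRNA_ANK 1 (0.0708) left out. Ero1a was at 64.9, 59.5 and 63.2 CPM in siRNA_ANK and 72.4, 71.1 and 77.0 CPM in controls, 1.18-fold lower (log2 fold change -0.23 ± 0.06, adjusted p = 0.00852), and did not pass with control 3 left out (adjusted p = 0.0510). Per kilobase of the gene length in the files, Ero1b averaged 3.84 CPM in siRNA_ANK and 14.4 CPM in controls, and Ero1a averaged 13.7 CPM in siRNA_ANK and 16.1 CPM in controls. On that per-length scale the level of Ero1b was well under that of Ero1a in siRNA_ANK cells and close to it in controls. The difference between the 2 fold changes was not tested.

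Among the protein disulfide isomerases, Pdia4 fell most, at 393, 356 and 554 CPM in siRNA_ANK and 1538, 1276 and 1587 CPM in controls (log2 fold change -1.76 ± 0.20, adjusted p = 0.00127). Pdia3, the partner of calnexin and calreticulin, was at 698, 643 and 875 CPM in siRNA_ANK and 1708, 1486 and 1827 CPM in controls (log2 fold change -1.18 ± 0.13, adjusted p = 0.000231). Pdia6 fell to 530 ± 93.3 CPM, against 1150 ± 107 CPM in controls, a fall of 2.17-fold. P4hb, which encodes the founding isomerase and is also a subunit of collagen prolyl 4-hydroxylase, was 1.26-fold lower, at 894, 901 and 949 CPM in siRNA_ANK and 1188, 1107 and 1174 CPM in controls (log2 fold change -0.34 ± 0.05, adjusted p = 0.000151). Its groups did not overlap either.

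In level per kilobase, P4hb ranked 5 of the 46 genes in siRNA_ANK and 11 in controls, and Pdia4 ranked 9 in siRNA_ANK and 6 in controls. Among the rest, Erp29, an isomerase relative without an active cysteine pair, fell 1.69-fold (adjusted p = 6.18e-07). Erp44, which retrieves oxidases and other clients from the early Golgi, fell 1.57-fold. The thioredoxin-related membrane proteins Txndc11 and Tmx1 fell 1.62-fold and 1.55-fold, and Tmx3 and Pdia5 1.16-fold and 1.24-fold. Txndc5 was at 391 ± 6.78 CPM in siRNA_ANK and 411 ± 14.99 CPM in controls and did not pass (log2 fold change -0.07 ± 0.05, adjusted p = 0.306).

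**Figure D3:**
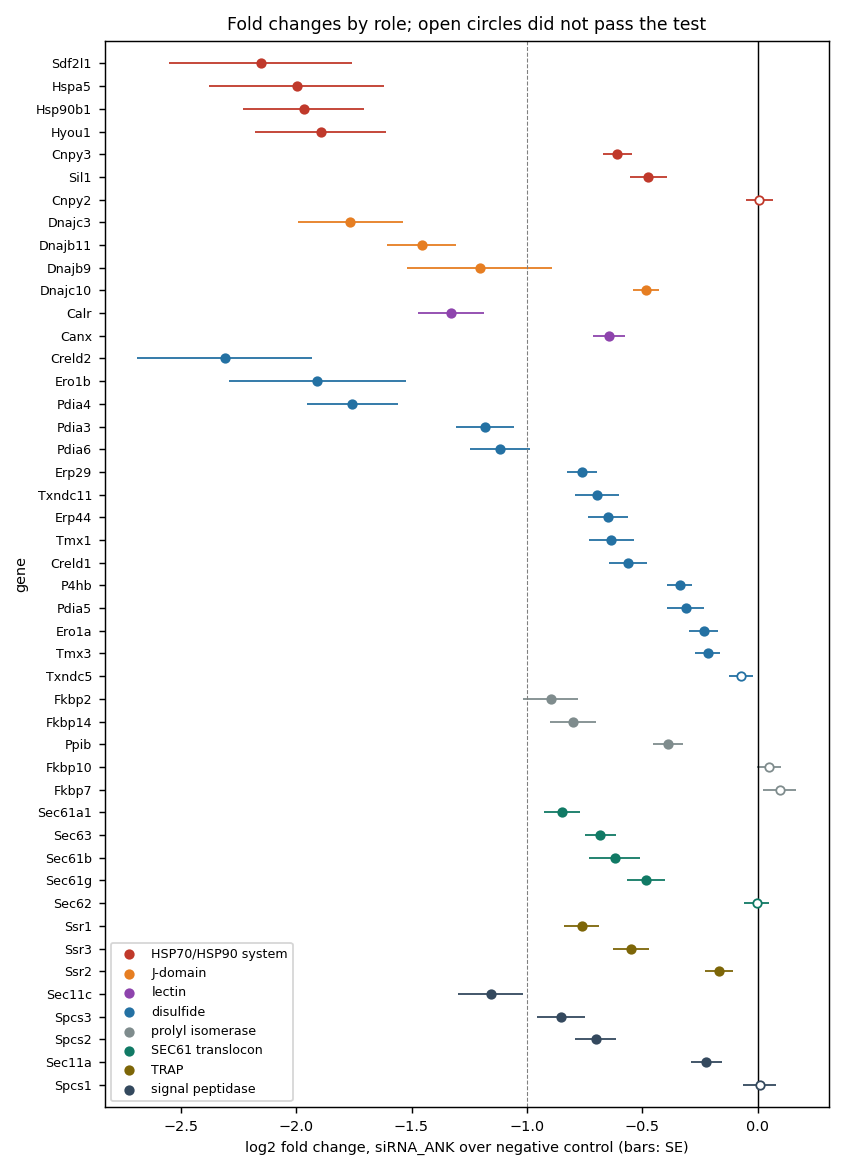
Points give the log2 fold change of each of the 46 genes, siRNA_ANK over negative control, with its SE as a bar, and colours give the role; the dashed line marks a 2-fold fall and open circles are genes that did not pass the test. The points run from -2.31 for Creld2 to 0.10 for Fkbp7, and the 6 open circles are Cnpy2, Txndc5, Fkbp10, Fkbp7, Sec62 and Spcs1.

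The prolyl isomerases, which turn peptide bonds before proline, were divided. Fkbp2 fell to 27.9, 22.2 and 33.8 CPM in siRNA_ANK, against 52.9, 51.2 and 52.1 CPM in controls (log2 fold change -0.90 ± 0.12, adjusted p = 0.000139). Fkbp14 fell 1.74-fold, to 58.0 ± 9.22 CPM, against 101 ± 6.44 CPM in controls. Ppib, the gene of cyclophilin B, fell 1.31-fold, at 386 ± 28.3 CPM in siRNA_ANK and 505 ± 34.2 CPM in controls. Fkbp10, a collagen chaperone, was at 361, 347 and 359 CPM in siRNA_ANK and 354, 334 and 342 CPM in controls (log2 fold change 0.05 ± 0.05, adjusted p = 0.480). Fkbp7 was at 41.6 ± 2.31 CPM in siRNA_ANK and 39.0 ± 1.89 CPM in controls (log2 fold change 0.10 ± 0.07, adjusted p = 0.322). For both of these genes the values of the groups overlapped.

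Of 5 translocon genes 4 fell, against 20.2% of all genes tested, with a median log2 fold change of -0.62. Sec61a1, the pore-forming subunit, was at 420, 393 and 488 CPM in siRNA_ANK and 797, 721 and 824 CPM in controls, 1.80-fold lower (log2 fold change -0.85 ± 0.08, adjusted p = 3.60e-06). The small subunits Sec61b and Sec61g were 1.54-fold and 1.40-fold lower. Sec63, a J-domain membrane protein that brings BiP to the channel, was at 162, 157 and 183 CPM in siRNA_ANK and 272, 251 and 283 CPM in controls (log2 fold change -0.68 ± 0.07, adjusted p = 2.07e-06). Its partner Sec62 was at 152, 156 and 162 CPM in siRNA_ANK and 161, 152 and 158 CPM in controls, with overlapping values (log2 fold change -0.00 ± 0.05, adjusted p = 0.969).

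The translocon-associated protein complex (TRAP) helps nascent chains through the channel. Ssr1 was at 213, 213 and 257 CPM in siRNA_ANK and 402, 357 and 399 CPM in controls (log2 fold change -0.76 ± 0.08, adjusted p = 5.41e-06), and Ssr3 fell 1.46-fold. Ssr2 had the smallest fall of the 40, with 103, 110 and 117.1 CPM in siRNA_ANK and 126, 118 and 128 CPM in controls (log2 fold change -0.17 ± 0.06, adjusted p = 0.0411). Ssr2 did not pass with control 1 (adjusted p = 0.138), control 3 (0.145), siRNA_ANK 1 (0.190) or siRNA_ANK 2 (0.0760) left out, by DESeq2 (0.0619) or with upper quartile scaling (0.0667).

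Signal peptidase exists with either of 2 catalytic subunits, Sec11a and Sec11c, and these moved by different amounts. Sec11c was at 25.8, 19.7 and 30.1 CPM in siRNA_ANK and 60.2, 49.1 and 59.2 CPM in controls, 2.23-fold lower (log2 fold change -1.16 ± 0.14, adjusted p = 0.000198). Sec11a was at 91.1, 84.2 and 101 CPM in siRNA_ANK and 109, 106 and 107 CPM in controls, 1.17-fold lower (log2 fold change -0.22 ± 0.07, adjusted p = 0.0148). Sec11a did not pass with control 1 (adjusted p = 0.0607), siRNA_ANK 1 (0.0578) or siRNA_ANK 2 (0.0693) left out. Per kilobase, Sec11c averaged 30.9 CPM in siRNA_ANK and 68.7 CPM in controls, and Sec11a averaged 47.8 CPM in siRNA_ANK and 55.7 CPM in controls, so that the order of these levels differed between the groups. The difference between the fold changes was not tested.

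The accessory subunits of signal peptidase also divided. Spcs3 and Spcs2 fell 1.81-fold and 1.63-fold (adjusted p = 0.000144 and 0.000104). Spcs1 was at 50.5, 49.5 and 55.4 CPM in siRNA_ANK and 54.8, 49.5 and 49.98 CPM in controls, with overlapping values (log2 fold change 0.01 ± 0.07, adjusted p = 0.928). Srpra, the alpha subunit of the receptor that docks ribosomes at the ER, was at 212, 207 and 234 CPM in siRNA_ANK and 321, 296 and 331 CPM in controls (log2 fold change -0.54 ± 0.06, adjusted p = 1.08e-05).

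The size of the fall differed between the siRNA_ANK libraries, and it was smallest in replicate 3 for almost every gene that fell. Among the 40 genes that fell, siRNA_ANK replicate 3 had the highest siRNA_ANK value for 38, and negative control replicate 2 had the lowest control value for 38. Among all 2629 genes that fell, these shares were 60.1% and 53.8%. For the HSP70 and HSP90 system, the median log2 ratio to the mean of the controls was -2.04 for siRNA_ANK 1, -2.34 for siRNA_ANK 2 and -1.40 for siRNA_ANK 3, against 0.04, -0.14 and 0.08 for controls 1, 2 and 3. The same order held for the J-domain genes, at -1.44, -1.77 and -0.92 in siRNA_ANK, and for signal peptidase, at -0.76, -0.90 and -0.48. In the disulfide group siRNA_ANK 1 and 2 were level, at -0.79 and -0.78, and among the prolyl isomerases siRNA_ANK 1 was the lowest, at -0.48 against -0.42 in siRNA_ANK 2, while siRNA_ANK 3 was nearest to 0 in both groups, at -0.44 and -0.27. On the first principal component of all genes tested, which held 70.6% of the variance, the same pair of libraries lay nearest to the other group, with scores of -25.4 for siRNA_ANK replicate 3, against -36.3 and -40.4 in the other siRNA_ANK libraries, and of 26.7 for control replicate 2, against 36.3 and 39.1 in the other controls. Ankh was also higher in siRNA_ANK 3 than in the other siRNA_ANK libraries, but control 2, at 351 CPM, was not the lowest control, control 1 being at 338 CPM. The smooth muscle markers stood in the same order, with summed levels of 9543, 10234 and 8637 CPM in siRNA_ANK 1, 2 and 3 and 5269, 6491 and 4868 CPM in controls 1, 2 and 3, so that siRNA_ANK 3 and control 2 again lay nearest to the other group. The part of these in the order of the listed genes was not tested. Without these 2 libraries 41 of the 46 genes fell and 0 rose, with a median log2 fold change of -0.83; the pair was chosen for lying nearest to the other group, so the larger median follows from the choice and supports nothing.

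**Figure D4:**
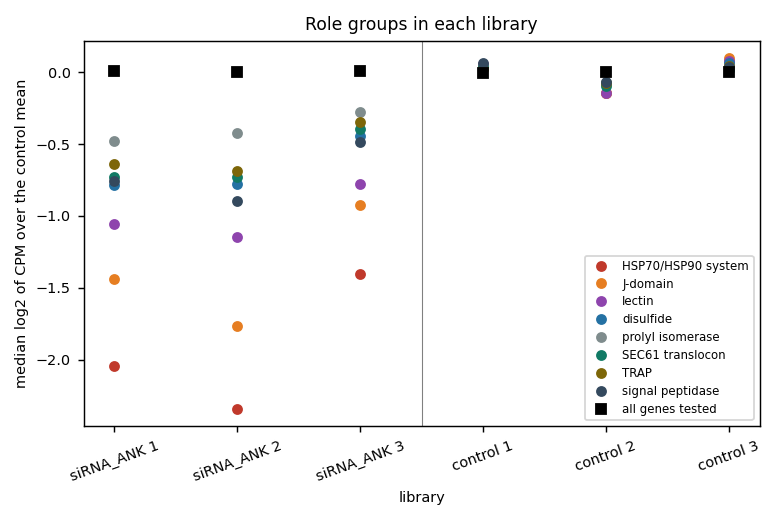
Points give, for each library, the median log2 of CPM over the control mean within each role group, with black squares for all genes tested. The role groups lie between -2.34 and -0.27 in the siRNA_ANK libraries, nearest to 0 in siRNA_ANK replicate 3, while the squares stay at 0.01 or less from 0 in all 6 libraries.

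This order was compared through pairs of libraries that share none. Across the 46 genes, the log2 ratio of siRNA_ANK replicate 3 to replicate 1 was negatively correlated with the log2 ratio of siRNA_ANK replicate 2 to control replicate 3 (Pearson r = -0.92, n = 46 genes). Across 12994 genes tested with counts in every library, r was -0.24. The log2 ratio of control replicate 2 to control replicate 1 was positively correlated with that of siRNA_ANK replicate 1 to control replicate 3 over the 46 genes (r = 0.71, against 0.22 over all genes tested). These are descriptions across genes, which are not independent replicates and share the same 4 libraries, and the comparison was chosen after the values were seen.

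**Figure D5:**
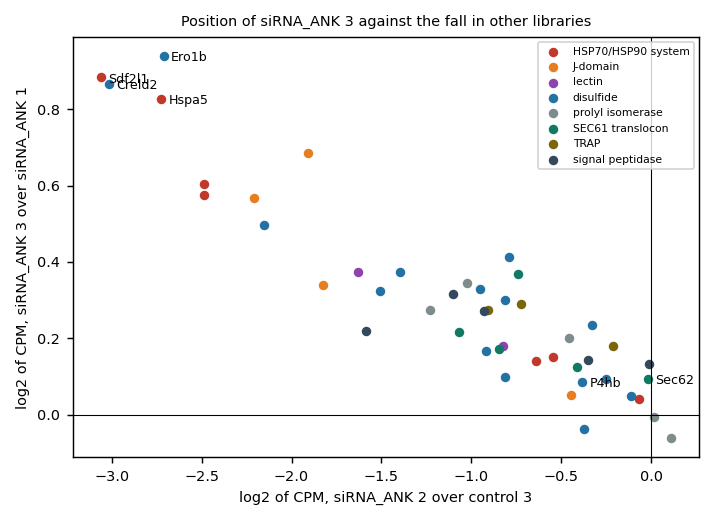
Each point is 1 of the 46 genes, with the log2 CPM ratio of siRNA_ANK replicate 2 to control replicate 3 on the x axis and that of siRNA_ANK replicate 3 to replicate 1 on the y axis, coloured by role. Genes further to the left, such as Sdf2l1, Creld2, Ero1b and Hspa5, lie higher, and r is -0.92.

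Of 13 sensors, transcription factors and regulators of the unfolded protein response tested, 8 fell and 2 rose, with a median log2 fold change of -0.29. The shares over all genes tested were 20.2% lower and 19.9% higher. The rises, of Mbtps1 (1.13-fold) and Creb3l2 (1.15-fold), were both lost without control 1, control 3 or siRNA_ANK 1, so that 0 genes of this list then rose, and both were lost in the test against a fold of 1.2. Without siRNA_ANK 2, and by DESeq2, Mbtps1 was lost too. Mbtps1 and Creb3l2 were named after their values were seen. The sensor genes Atf6, Ern1 (IRE1) and Eif2ak3 (PERK) fell 1.91-fold, 1.74-fold and 1.67-fold, and Atf6b fell 1.22-fold. Ddit3, which encodes CHOP, was at 212, 198 and 309 CPM in siRNA_ANK and 766, 661 and 748 CPM in controls (log2 fold change -1.60 ± 0.19, adjusted p = 0.00133); it was named after its values were seen. Xbp1, the transcription factor activated by IRE1 through splicing, was at 289, 274 and 346 CPM in siRNA_ANK and 342, 350 and 342 CPM in controls (log2 fold change -0.18 ± 0.07, adjusted p = 0.0657). Xbp1 passed as lower without siRNA_ANK 3, and gene counts do not separate its spliced form. Atf4 was at 573, 548 and 622 CPM in siRNA_ANK and 601, 601 and 574 CPM in controls (adjusted p = 0.745). Xbp1 and Atf4 were also named after their values were seen.

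Neighbouring ER processes were lower as well, against 20.2% of all genes tested that were lower and 19.9% that were higher. Of 17 genes of ER-associated degradation, 15 fell and 0 rose, with a median log2 fold change of -0.52. Edem1, which marks misfolded glycoproteins for disposal, was at 164, 155 and 205 CPM in siRNA_ANK and 502, 441 and 522 CPM in controls (log2 fold change -1.48 ± 0.11, adjusted p = 4.97e-06). Derl1, a channel component for export to the cytosol, fell 1.73-fold, Edem3 1.43-fold and Vcp, the ATPase that pulls substrates out, 1.37-fold. All 9 subunits tested of the oligosaccharyltransferase, which attaches N-glycans, fell, with a median of -0.46, and Stt3b and Stt3a, its catalytic subunits, fell 1.72-fold and 1.40-fold. Without control 1 or without siRNA_ANK 1, 8 of these 9 passed as lower. Rpn1 and Dad1 of the same complex fell 1.56-fold and 1.43-fold. Of 16 genes of the signal recognition particle and other import routes, 12 fell and 3 rose, with a median of -0.31. Fewer import genes fell without control 1, siRNA_ANK 1 or siRNA_ANK 2. Only 2 rose without control 2, control 3, siRNA_ANK 1 or siRNA_ANK 2. Tram1, Srp72, Get4 and Sec61a2 fell 1.46-fold, 1.43-fold, 1.48-fold and 1.45-fold.

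Chaperones outside the ER and the enzymes of collagen modification gave other counts. Over all genes tested, 20.2% were lower and 19.9% higher. Of 19 cytosolic chaperones and chaperonin subunits, 3 fell and 2 rose, with a median log2 fold change of 0.03. Without siRNA_ANK 3, 4 of these fell and 3 rose, and 3 also rose without control 2 or siRNA_ANK 1. Hsph1 and Dnajb4 rose 1.35-fold and 1.68-fold, and Stip1 and Hspa4 fell 1.26-fold each. Hspa8, the constitutive cytosolic HSP70, was at 618, 665 and 629 CPM in siRNA_ANK and 637, 610 and 625 CPM in controls, with overlapping values. Of 11 mitochondrial chaperones and proteases, 2 fell and 2 rose, with a median of -0.06. Lonp1 and Hspa9 fell 1.47-fold and 1.28-fold, Htra2 rose 1.46-fold, and Clpx rose 1.14-fold, a call lost without any 1 library but siRNA_ANK 2. Without siRNA_ANK 3, 4 of these genes fell, with Dnaja3 and Grpel1 added, which were named after their values were seen. Hspd1 was at 250 ± 21.5 CPM in siRNA_ANK and 254 ± 2.93 CPM in controls. Hspa8 and Hspd1 were named after their values were seen. Of 9 collagen chaperones and modifying enzymes, 3 fell and 4 rose, with a median of 0.12. Plod2, a collagen lysyl hydroxylase of the ER, rose to 1856 ± 76.0 CPM, against 1048 ± 56.6 CPM in controls (log2 fold change 0.82 ± 0.06, adjusted p = 5.88e-08). P4ha3, P4ha2 and Fkbp9 rose 2.38-fold, 1.38-fold and 1.26-fold. Of the 3 that fell, P4ha1 and P3h1 were 1.25-fold and 1.24-fold lower, and both were named after their values were seen. Without siRNA_ANK 3, 5 of these collagen genes rose. Of 11 other ER redox genes, 4 fell and 3 rose, with a median of -0.10. Without control 1, siRNA_ANK 1 or siRNA_ANK 2, only 3 of these redox genes fell. Vkorc1, the vitamin K epoxide reductase, rose 1.69-fold, and Selenom, Txndc16 and Tmx2 fell 1.51-fold, 1.33-fold and 1.28-fold.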

How the data were processed

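Rat vascular smooth muscle cell RNA was sequenced in 6 libraries, 3 per group. Each deposited file holds raw counts for 1 library, whole numbers that the authors did not normalize. The submitters' processing notes name featureCounts 1.5.0-p3, DESeq2 and the build mRatBN7.2. Aligner and strand setting: not given in the sources used here. A gene and its antisense or overlapping neighbour may therefore share reads.

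The test was edgeR 4.0.16 (R 4.3.3): filterByExpr (minimum count 10, minimum total 15; 13016 of 30945 genes kept), TMM scaling (factors 0.979 to 1.02), the robust two-sided quasi-likelihood test without covariates, and Benjamini-Hochberg adjustment over all genes tested. Loci with no symbol (385, 0.306% to 0.339% of counts) stayed in. Each SE was obtained as |log2 fold change| divided by the root of F. Folds are model estimates. Levels per kilobase are mean CPM over the gene length in the files. Depth was 15641259 to 17441548 counts per library. On counts simulated for siRNA_ANK against negative control (12894 genes tested), 73.0% of genes changed 1.5-fold, 90.8% changed 2-fold and 100% changed 4-fold were recovered, and 6.99% of calls were false. The simulation gave 186 calls in all, while in the data 2629 genes were lower and 2594 higher. These shares depend on how many genes change, so they do not carry over to the calls in the data.

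No 2 libraries of a group agreed within sampling noise (chi-square per degree of freedom 2.91 to 13.1). All gene lists, role groups and members were chosen with earlier results of these data known. All matched members are described; from each other list of pathway genes the called genes with the smallest adjusted p are named, at most 4, and any further gene of these lists is said to have been named after its values were seen. The marker lists are given by counts and sums. Snd1 was listed among the import genes in error, as the rat gene of that symbol is not the yeast targeting factor, and is left out of that list's counts. Promoter sequences come from RefSeq (GRCr8). The planned protein features were not analysed here. Alternatives were DESeq2 1.42.0, other scalings and filters, the replicate number as a block, a test for changes beyond 1.2-fold, and fits with libraries left out.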

Additional observations from a re-analysis of the deposited data

How the results depend on the processing

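The 40 falls, 0 rises and the median log2 fold change of -0.66 among the 46 genes were recomputed under 15 alternatives. The number that fell was between 32 (test against a fold of 1.2) and 41 (with control 2 and siRNA_ANK 3 both left out), and the number that rose was 0 in each. Leaving out 1 library at a time gave 34 to 40 falls and medians of -0.77 to -0.61, and 33 of the 40 genes passed in every one of these 6 fits; the 7 that did not are Hspa5, Sdf2l1, Dnajb9, Ero1a, Ero1b, Ssr2 and Sec11a. Without both of these libraries, which were picked for lying nearest to the other group so that a larger median was to be had by construction, the median moved to -0.83, and Txndc5 then also passed (adjusted p = 0.0423). No log2 fold change of a called gene turned its sign. Over all genes tested, 5223 differed, against 2477 in the test against a fold of 1.2 and 4053 to 5850 without 1 library. The test against a fold of 1.2 also ended the calls of 8 of the 40, namely P4hb, Pdia5, Tmx3, Ero1a, Ppib, Ssr2, Sec11a and Dnajb9; that test asks for a larger change by construction. Dnajb9 was not called without the filter beyond 1 count (adjusted p = 0.0588).

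With the replicate number as a block, a replicate block fit, 40 of the 46 genes fell and 5210 genes differed in all. Deviations from the group mean correlated little between libraries of the same number (r = -0.03, 0.06 and 0.04 for replicates 1, 2 and 3). Between libraries of different numbers r was -0.09 to 0.05. With 3 libraries per group this cannot tell whether libraries of the same number were paired. With 1 mismatch allowed in the 10 fixed bases, an ERSE was found in 10 of the 39 promoters, against 7 for the exact element. The looser element was also far more common elsewhere, in 471 of all 33469 promoters (1.41%) and 199 of the 9009 tested genes (2.21%). With the 20 most abundant genes left out, Hspa5 and Hsp90b1 among them, the 44 remaining genes of the list held 1.27% of the remaining siRNA_ANK counts and 2.47% of the remaining control counts.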
